A study of Mus musculus with 4 samples.

Results

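Mecom had 36 of the 4172 distinct NAT10 peaks in mouse 32D cells, and they are described here along the locus. They are every row of the authors' peak list whose gene is Mecom, and all 36 carry the identifier ENSMUSG00000027684, the minus strand of chromosome 3 and positions of genome build GRCm39. The peaks come from eCLIP, in which UV light fixes proteins to the RNA they touch and the RNA fragments pulled down with an antibody are sequenced. The study held 2 libraries pulled down with a NAT10 antibody and 2 input libraries with no antibody. All 4 came from the wild-type line 32D, labelled as mouse bone marrow lymphoblastocytes and grown in RPMI1640 with 10% FBS and mouse IL-3 at 10 ng/mL, and the labels do not say whether they came from separate cultures. The list joins these libraries into 1 log2 fold of immunoprecipitate over input and 1 -log10 p per peak, so no spread between replicates can be given, library totals are unknown, and weaker binding cannot be seen below its minima, 3.00 for log2 fold and 3.07 for -log10 p. The gene itself was chosen by measured values, the number and strength of its peaks, so its counts, folds and p-values are given as a description, without a test.

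NAT10 is the acetyltransferase that makes N4-acetylcytidine on RNA. Mecom, the MDS1 and EVI1 complex locus, encodes a zinc finger transcription factor of the PRDM family that long-term blood stem cells need, and its EVI1 part was first found as a site where retroviruses insert in mouse myeloid leukaemias. The locus is known for alternative starts: the outer start gives the MDS1-EVI1 form, which carries the PR domain, and an inner start gives the shorter EVI1 form. The RefSeq promoter table of build GRCm38.p6 lists 2 starts for the gene, and the 30 bases before each are printed below. Their use in these cells was not measured. Capitals mark the letters GATA, which were looked for on both strands after these stretches had been read, and 7.37% of all 32851 promoters in the table hold them in the same window.
Outer start, chr3:30509760-30509789, minus strand, GRCm38.p6: GATAaatcgctccaaactttttttggcggc
Inner start, chr3:30013205-30013234, minus strand, GRCm38.p6: tggaGATAgctccctttctccctcgccccg

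The 36 peaks lay between chr3:30005497 and chr3:30064041, a span of 58545 nt. In the older build the 2 starts are 496555 nt apart, and the inner one lies 61909 nt from the 3' end of the gene record. The listed peaks span less than the distance between the starts and can reach at most 1 of them, provided that distance is alike in both builds. The positions were not converted between builds, so the distance of the 5'-most peak from the inner start is not given. Inside the Mecom record of the RefSeq table lie 3 other genes, the lncRNAs Mecomos and Gm52621 and the misc_RNA Gm10258. By symbol, 0 of these 3 had a peak in the list. No share with a peak is given here for lncRNAs or misc_RNAs, and a count of 0 among 3 genes says little. Of the 1627 listed symbols 1609 were found in the RefSeq table, so a gene listed under another symbol would be missed.

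Read in the direction of transcription, the peaks fell into 10 stretches separated by more than 1000 nt. The first stretch was in the 5' UTR class, the next crossed from 5' UTR to exon, 1 was an exon peak, then came 2 stretches of 3' UTR peaks, 4 stretches of exon peaks, and last a dense stretch of 3' UTR peaks. The authors' classes did not follow each other once along the locus: 8 of the 10 exon peaks lay downstream of the inner 3' UTR peaks and 2 upstream. The transcript models behind the classes were not used here. Distances, gaps, stretches and the span are counted on the genome, with any introns included. They are not distances along the spliced mRNA. Peaks covered 2091 nt, or 3.57% of the span.

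**Figure D1:**
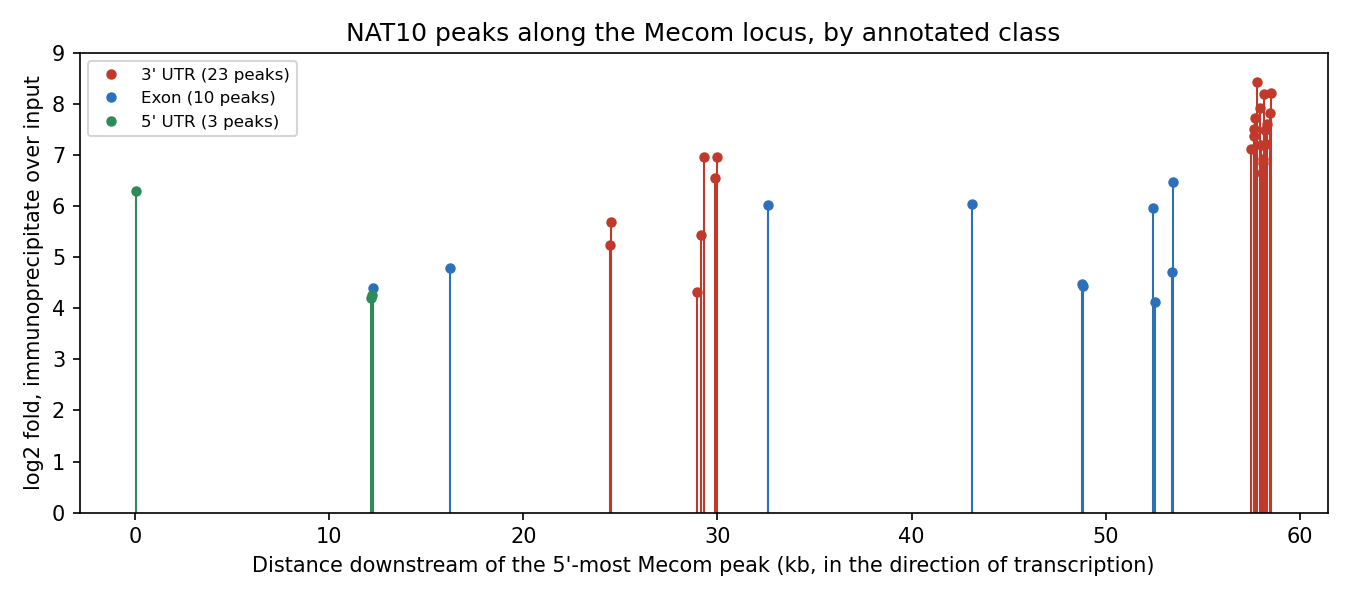
Each point is 1 Mecom peak at its distance in kb downstream of the 5'-most peak, with the authors' log2 fold over input on the vertical axis and the class as colour. The 16 peaks at the right end lie between 6.65 and 8.44, and the 3' UTR peaks near the middle of the map are followed by 8 exon peaks.

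The 5' UTR, the leader that ribosomes scan before the start codon, held 3 peaks. The 5'-most of all, chr3:30063913-30064041, was 129 nt wide, stood alone and reached 6.31 in log2 fold and 36.2 in -log10 p. The others, chr3:30051865-30051896 and chr3:30051812-30051864, had log2 folds of 4.20 and 4.26 and the same -log10 p of 16.5. So the upstream peak, isolated on the genome, was the strong one. By log2 fold the pair 12016 nt farther on was among the weakest of the locus. That pair touched an exon peak, chr3:30051796-30051811, which had 4.39 in log2 fold and 15.1 in -log10 p. Together they formed 1 unbroken region of 101 nt in which log2 fold differed by 0.19 from end to end, and it was the only 1 of the 20 touching runs with more than 1 class. The class changed there without a gap between peaks.

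The 10 exon peaks were narrow, with a median width of 33.5 nt, and lay in 8 regions, 1 of them shared with the 5' UTR. Their log2 folds ran from 4.13 to 6.47 around a median of 4.75, and their -log10 p from 10.5 to 23.3. The strongest were chr3:30010573-30010617 at 6.47, chr3:30020916-30020967 at 6.03, chr3:30031409-30031430 at 6.03 and chr3:30011566-30011607 at 5.97. The other 6 lay between 4.13 and 4.79. By log2 fold the exon peaks thus formed a higher and a lower set, with no value between 4.79 and 5.97. By -log10 p the sets overlapped, with 13.2 to 18.6 in the higher and 10.5 to 23.3 in the lower. Neighbours could differ widely. The peak of 5.97 was 13 nt from chr3:30011462-30011552, which had the lowest log2 fold of the locus, 4.13, and at 23.3 the highest -log10 p of any Mecom exon peak. At chr3:30010573-30010638 a piece at 6.47 touched a piece of 21 nt at 4.71, a step of 1.76 inside 66 nt.

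Farther upstream than most exon peaks lay 7 peaks of the 3' UTR class, between chr3:30033976 and chr3:30039638. Their log2 folds ran from 4.33 to 6.96, with a median of 5.70. The strongest were chr3:30034663-30034839 at 6.96, which at 177 nt was the widest Mecom peak and had a -log10 p of 46.2, and chr3:30033976-30034111, also at 6.96, with 28.0. Next came chr3:30034114-30034185 at 6.55, only 2 nt away from the second of these. The weakest was a peak of 12 nt, chr3:30035092-30035103, at 4.33 with a -log10 p of 9.21, the lowest of the locus. A touching pair at chr3:30039492-30039638 had 5.70 and 5.24 and lay 4388 nt before the rest. These 7 peaks made up 19.4% of the Mecom peaks and 29.3% of the bases covered.

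The last stretch, chr3:30005497-30006583, held 16 peaks of the 3' UTR class within 1087 nt, and peaks covered 843 nt of it (77.6%). It lay 3989 nt beyond the last exon peak. Log2 folds ran from 6.65 to 8.44 with a median of 7.50, which is 180-fold on a linear scale, against a median of 5.33 (40.3-fold) for the other 20 peaks. Only 2 of those 20 exceeded the weakest peak of this stretch. All 13 Mecom peaks above a log2 fold of 7 lay here, and 5.35% of all listed peaks were above that value. The 3' end thus carried 44.4% of the Mecom peaks and the upper part of the folds, and without it the median log2 fold of the gene falls from 6.60 to 5.33.

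Inside this stretch the signal was nearly continuous and uneven. It was cut into 6 regions: a lone peak of 61 nt (7.12), a lone peak of 29 nt (7.38), a run of 3 peaks over 234 nt, a run of 9 peaks over 413 nt, and lone peaks of 29 nt (7.82) and 77 nt (8.21). The gaps between them measured 92, 1, 54, 96 and 1 nt. In the run of 3 the log2 folds in the direction of transcription were 7.51, 7.73 and 8.44, the last at chr3:30006167-30006318, the strongest Mecom peak and number 59 of the list by log2 fold. In the run of 9, chr3:30005700-30006112, the log2 folds from 5' to 3' were 7.92, 7.20, 6.65, 6.85, 6.93, 8.20, 7.48, 7.23 and 7.61. They form a trough at chr3:30005964-30006019 and a sharp maximum of 66 nt at chr3:30005854-30005919, where the log2 fold was 1.27 above the piece just before it. The -log10 p followed another order, with 69.9 at the trough and 58.2 at the first piece of the run. It was highest, 141.8, at that 66-nt piece and only 82.7 at the strongest peak by log2 fold, and 87.2 and 85.9 at chr3:30005761-30005838 and chr3:30005839-30005853. Of the 16 peaks, 0 reached the ceiling of 400, at which 34 peaks of the list stand.

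**Figure D2:**
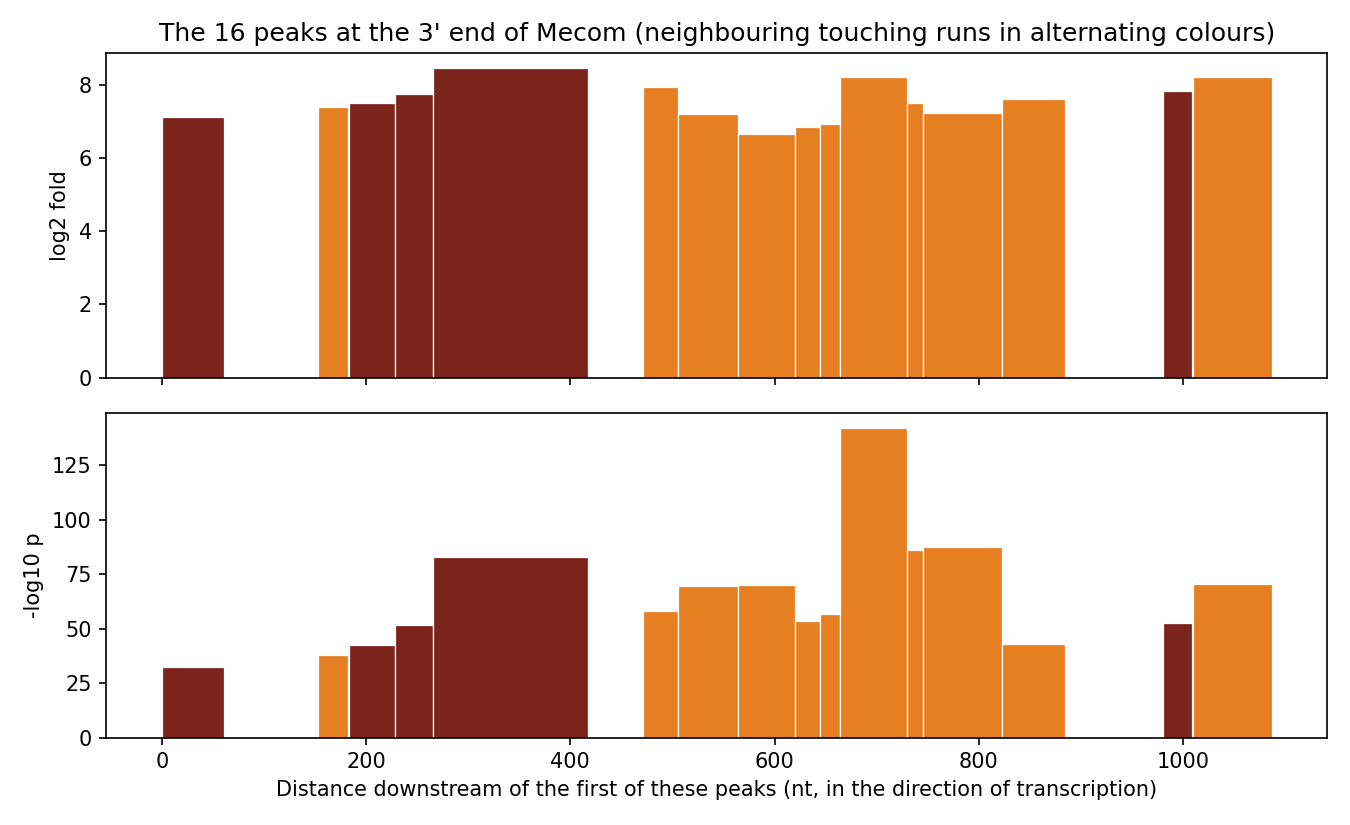
Bars show the 16 peaks at the 3' end of Mecom to scale, in nt downstream of the first of them, with log2 fold above and -log10 p below; neighbouring touching runs alternate in colour. The widest bar, 152 nt, has the highest log2 fold, 8.44, while the highest -log10 p, 141.8, belongs to a piece of 66 nt with a log2 fold of 8.20.

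The folds also gave a view of the reads behind each peak. If a listed fold is the mean over the 2 replicates of the log2 ratio of read counts, shifted by a constant for library size, then 2 to the power of 2 × log2 fold is that constant times the product of the immunoprecipitate reads over the product of the input reads. With 1 constant fitted to the whole list, this ratio was a whole number (within 0.005) for 82.8% of all peaks and a fraction with a denominator of at most 40 for 99.2%. The reading is inferred from the values and is not stated by the authors. For Mecom 20 of 36 peaks (55.6%) gave a whole number, as 1 input read in each library would, and 16 needed more input reads. At the 3' end 11 of 16 were whole. A whole number does not show that only 1 input read was there, since larger counts can divide evenly. Nor does it show that any was there, since a floor of 1 in place of missing input reads would look the same.

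On this reading the square root of that ratio is the number of immunoprecipitate reads per input read, as a geometric mean over the replicates. Where a floor stood in for missing input reads, it is a count over that floor and not a measured ratio. It was 200 at the strongest peak, chr3:30006167-30006318, and 168 at chr3:30005854-30005919, and over the 16 peaks of the 3' end it ran from 57.8 to 200 with a median of 104. For the 7 inner 3' UTR peaks it ran from 11.5 to 71.8, for the exon peaks from 10.1 to 51.0, and for the 5' UTR peaks from 10.6 to 45.5. The median over the list was 14.0. The 5' UTR pair of low log2 fold needed an input product that is a multiple of 25. The exon peak touching it needed a multiple of 8 and the exon peak chr3:30047770-30047851 a multiple of 16. The first 3 of these peaks make up the 101-nt region, the last lies 3944 nt downstream of it, and their log2 folds were 4.20 to 4.79 beside a -log10 p of 15.1 to 21.0. The exon peak of lowest log2 fold, chr3:30011462-30011552, needed a multiple of 7, while its neighbour at 5.97 gave a whole number. The other exon peaks of the higher set, at 6.03, 6.03 and 6.47, gave whole numbers too. In the lower set chr3:30010618-30010638 needed a multiple of 9 and chr3:30015240-30015264 of 3, while chr3:30015215-30015239 gave a whole number. Outside the 3' end the 9 peaks with a whole number had a median log2 fold of 6.31 and the 11 others 4.48, and at the 3' end the medians were 7.73 for 11 peaks and 7.20 for 5. The input is the denominator of the fold, and whole or not was read from the fold itself, so this difference is partly built in. The part of the input count in the pattern along the locus was not tested.

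**Figure D3:**
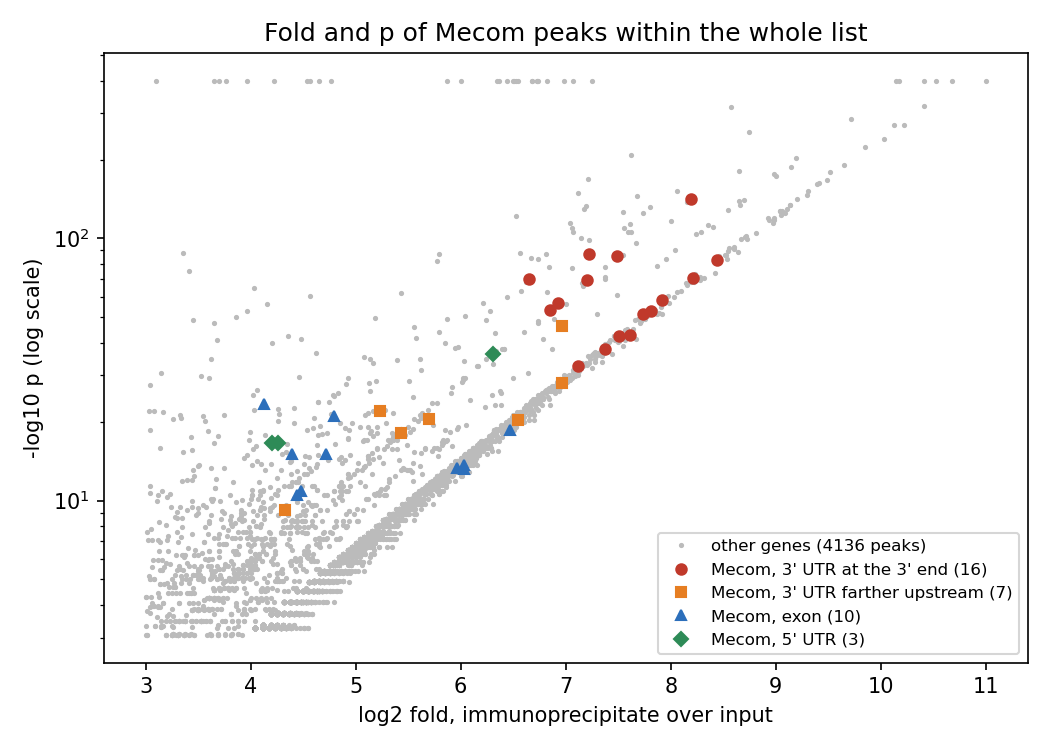
Every peak of the list is placed by log2 fold (horizontal) and -log10 p (vertical, log scale), with the Mecom peaks in colour by position and class and other genes in grey. All 16 peaks of the 3' end lie at a log2 fold of 6.65 or more and a -log10 p of 32.5 or more, and the exon peaks reach at most 6.47 and 23.3.

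Set within the whole list, Mecom peaks were many, strong and, as single pieces, narrow. Their median log2 fold of 6.60 was above 92.2% of all listed peaks, and 29 of 36 exceeded the list median of 4.60, as 49.2% of all peaks do; these values helped to choose the gene. By class the medians were 7.20 for Mecom against 4.64 for the list in 3' UTRs, 4.75 against 4.55 in exons, and 4.26 against 4.50 in 5' UTRs. Mecom and the list were farthest apart in the 3' UTR, where the 7 inner peaks alone had a median of 5.70, and in the 5' UTR the Mecom median was the lower. The weakest Mecom peak by -log10 p, at 9.21, was still above 70.6% of the list. Median width was 52.5 nt (interquartile range 28.0 to 73.3), below the 79 nt of the list, and 23 Mecom peaks (63.9%) touched another peak, against 30.6% over the list. Width of single pieces says little where pieces touch, and the touching runs of Mecom had a median of 74.5 nt. That value is not to be set against the 79 nt, which is for single peaks. Peak widths summed to 2091 nt in 20 runs for Mecom and to 363904 nt in 3421 runs over the list, so joined regions were not shown to be narrow.

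The class shares of Mecom were 63.9% for the 3' UTR, 27.8% for exons and 8.33% for the 5' UTR, beside 57.6%, 36.7% and 5.68% for the list. Only 6 of the 41 genes with 10 or more peaks had all 3 classes. Likeness was measured over those genes as the summed absolute difference of the 3 shares divided by 2, so that 0 means equal shares. The gene most like Mecom was Rps18, a protein of the small ribosomal subunit, with 11 peaks at a distance of 0.0076. Slc18a2, a vesicular monoamine transporter, followed with 14 peaks (0.083), then Lcp1, an actin-bundling protein of blood cells, with 10 (0.12), Ikzf2, a zinc finger transcription factor of the Ikaros family, with 13 (0.13), and Mdm4, a p53 inhibitor, with 22 (0.13). The strongest peaks of these 5 had log2 folds of 6.14, 6.69, 5.37, 5.79 and 6.61, below the 8.44 of Mecom. Mecom had more peaks than any of them and was chosen partly for strength. With 10 to 36 peaks per gene such shares are coarse.

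Next to Mecom in number of peaks came genes of varied layout. Snrnp70, a U1 snRNP protein, had 25 peaks in 17 regions over 7262 nt. Luc7l2, a U1-associated factor, had 22 in 19 regions over 56207 nt, close to the 20 regions over 58545 nt of Mecom, and it too had all 3 classes, with 12 peaks of the 3' UTR class, 4 of the exon class and 6 of the 5' UTR class. The splicing regulator Mbnl1 and Mdm4 each had 22 peaks in 14 regions. Cdk6, a cell cycle kinase, had 20 peaks in 16 regions, all in the 3' UTR, and the translation elongation factor Eef1a1 had 20 in 11, all in exons. Mecom came first of all genes by touching runs (20), by bases covered (2091 nt, before Mbnl1 with 1798 and Mdm4 with 1777) and by peaks above the list median (29). The lead by touching runs was narrow, 20 against 19 for Luc7l2, and 3 gaps between Mecom runs measured only 1 or 2 nt. With peaks up to 10 nt apart joined, Mecom had 17 regions, and the other genes were not counted in that way. In a window of 1087 nt, the length of its 3' stretch, Mecom and the mitochondrial mRNA mt-Co1 both reached 16 peaks, and Actb, Eef1a1 and Ptpre reached 13. Snrnp70 reached 11 and Mdm4 7. The window was set to the length of the Mecom stretch, so this comparison favours Mecom. Over all peaks of a gene the median log2 fold was 8.39 for Ptpre, 7.25 for Actb and 7.11 for mt-Co1. These are above the 6.60 of Mecom, while Eef1a1 had 4.65. The strongest Mecom peak ranked number 20 among the strongest peaks of all genes.

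**Figure D4:**
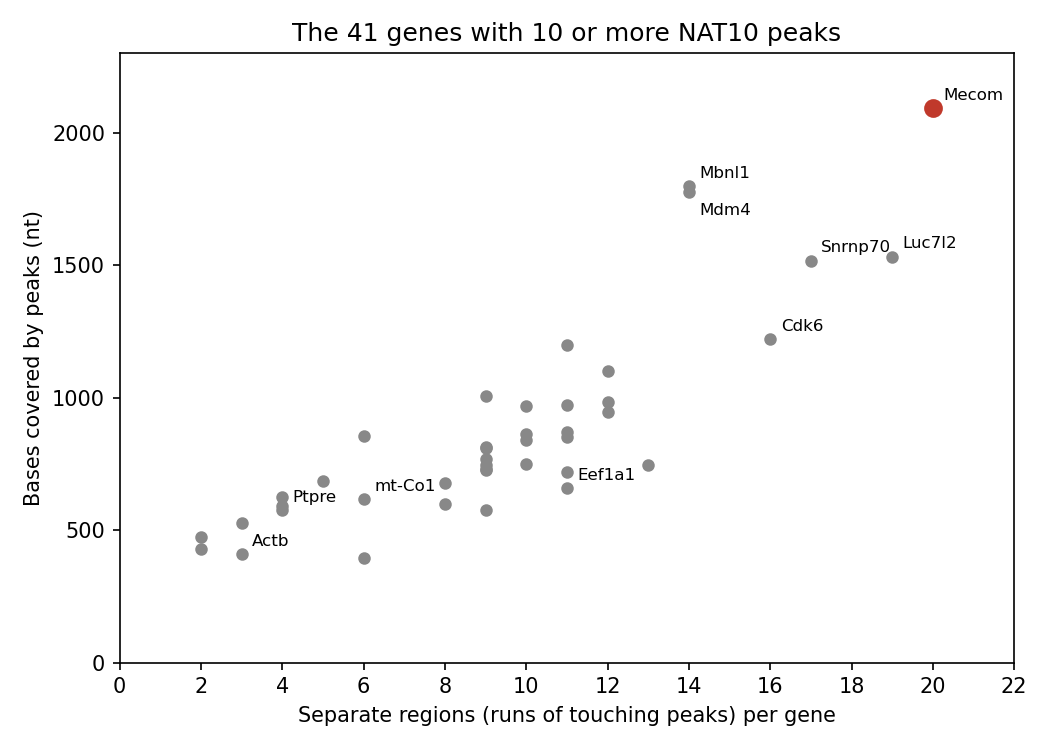
Each point is 1 of the 41 genes with 10 or more NAT10 peaks, by its number of separate regions (horizontal) and the bases its peaks cover (vertical, nt). Mecom, in red, lies at 20 regions and 2091 nt, with Luc7l2 next by regions (19) and Mbnl1 next by bases (1798).

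Other genes of the MECOM pathway were read from 3 lists, beside a share of 7.33% of the 21900 protein-coding genes in the RefSeq table that had a peak. Of 14 other PRDM family genes, which share the PR domain, 0 had a peak. Beside the share of 7.33%, a count of 0 among 14 genes says little. Among 23 genes for proteins that MECOM binds, or that act beside it on chromatin, 4 had a peak (17.4%). They were Runx1, a core-binding factor subunit required for the first blood stem cells, with 12 peaks up to a log2 fold of 7.50, Suz12, a Polycomb subunit, with 3 up to 5.52, Gata2, a zinc finger factor of blood progenitors, with 3 up to 5.04, and Ehmt1, a histone H3 methyltransferase, with 2 up to 4.91. Of 14 genes reported as targets of MECOM, 4 had a peak (28.6%). Besides Runx1 and Gata2, which both lists hold, these were Erg, an ETS transcription factor, with 1 peak at 6.70, and Bcl2l1, a survival gene, with 3 up to 5.46, all in its 5' UTR. The strongest peaks of the bound members had median log2 folds of 5.28 among partners and 6.08 among targets, beside 4.69 over all genes with a peak. The background was not limited to genes transcribed in 32D cells, and the lists were drawn up with earlier results for these genes known, so the shares are a description.

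The peak list gives no expression levels, so the cell type could be checked only by which marker mRNAs had a peak. Of 14 markers of interleukin-3-dependent myeloid progenitors 5 had one, namely Csf2rb, Prtn3, Gata2, Srgn and Ptprc, the last of which lymphoid cells carry too. Of 11 lymphoid markers 0 had one. Beside the 7.33% of all protein-coding genes with a peak, a count of 0 among 11 genes says little, and the label was not settled by these counts. Absence from the list shows neither silence nor lack of binding.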

How the data were processed

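The authors deposited 1 peak list for the 4 libraries, with 4206 rows and 4172 distinct peaks. Per the file headers it has a fold and a p column. The deposited fold column was read as log2 fold of immunoprecipitate over input, and the deposited p column as -log10 p, since all its values exceed 3. Positions are in GRCm39, per the submitters' processing notes. For the aligner, peak caller, cut-offs, multi-mapped reads and p adjustment, nothing is given in the sources used here. Both are the authors' values and serve only for description and ranking inside that list.

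Rows whose gene was Mecom were taken with pandas 2.3.3. Peaks that shared a boundary on 1 strand were joined into touching runs, and peaks up to 1000 nt apart into stretches. Joining and the fit of the read constant were checked on simulated data. RefSeq's gene table (GRCm38.p6) matched 1609 of the listed symbols, and sequences come from RefSeq too. Named genes are Mecom, the 5 genes nearest in class shares among those with 10 or more peaks, the 5 with the most peaks after Mecom with ties, and every listed pathway or marker gene with a peak; 1 gene of the lists is not reported here and was left out of their counts. The leaders by peaks in a window were added after values were seen. Members and lists were chosen with earlier results of these data known. No test was run, since the list has no value per library.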

Additional observations from a re-analysis of the deposited data

How the results depend on the processing

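The rank of Mecom by number of peaks stayed at 1 under each of 3 alternatives (touching runs, bases covered, stronger peaks). Number and strength of peaks had chosen the gene, so this rank is a description only. The 3' UTR share of 63.9% ran from 55.0% with runs counted once to 75.9% with peaks above the list median. Counting touching runs once left 20 instead of 36 peaks and gave a median width of 74.5 nt instead of 52.5. Joining peaks up to 10 nt apart left 17 regions instead of 20, up to 50 nt left 16 and up to 100 nt left 13. In an alternative chosen after seeing the data, up to 1000 nt left 10. The other genes were not joined across gaps, so the rank by regions is known for touching runs only. The median log2 fold of 6.60 was 6.39 over the strongest peaks of runs, and 5.33 without the 16 peaks at the 3' end, also chosen after seeing the data. A -log10 p of 5 or more removed no Mecom peak. No paired analysis was possible because the list has no value per library, and no replicate could be left out for the same reason. The depth behind each peak is unknown.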
